A study of Mus musculus with 59 samples.

Results

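Binding of BCL6, PPARα and PPARδ was examined at 9 genes of hepatic gluconeogenesis: *Pcx*, *Pck1*, *Pck2*, *Fbp1*, *G6pc*, *Slc37a4*, *Got1*, *Tat* and *Sds*. A ChIP-seq peak was assigned to a gene if its center lay within the gene, or if the nearest transcription start site (TSS) of a protein-coding gene lay within 100 kb and belonged to it. Peaks whose centers lay within 200 bp of each other were joined into sites, the distance below which the study regarded peaks as overlapping. Joining ran in chains, so the outer peaks of a site could lie further apart. By this rule 59 of 40474 sites, made of 197 of 102931 peaks, were assigned to 7 of the 9 genes, and none to *Pck2* or *Sds*.

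The study mapped BCL6, PPARα and PPARδ on chromatin from mouse liver to ask how a repressor and 2 nuclear receptors divide the genome between feeding and fasting. Each factor was mapped in wild-type C57BL/6 livers from mice fed *ad libitum* and from mice fasted overnight, and BCL6 was mapped a further time in livers of fed C57BL/6 mice with the genotype *Bcl6* fl/fl. These floxed mice served as controls of a liver knockout and carry loxP sites at *Bcl6* without Cre. Whole liver was used, so hepatocytes and the other liver cells contributed together, and peak positions alone cannot check the tissue against marker genes. For BCL6, the study reported very similar peaks with hepatocyte knockout livers as background, and read its BCL6 sites as binding in hepatocytes.

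Gluconeogenesis makes glucose from lactate, glycerol and amino acids, and in fasting the liver is its main site. Pyruvate carboxylase and phosphoenolpyruvate carboxykinase turn pyruvate into phosphoenolpyruvate, most later steps are reversible steps of glycolysis, and fructose-1,6-bisphosphatase and glucose-6-phosphatase bypass the irreversible ones. BCL6 is a zinc finger repressor, PPARα is the nuclear receptor that drives fatty acid oxidation in fasted liver, and PPARδ is a related receptor that binds the same kind of DNA element together with RXR.

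The 7 peak lists gave positions only, each list combined 3 biological replicates, and all peaks within a list had the same width, between 192 and 222 bp. Each list could thus only say whether a site was present, with no value per animal, no error between replicates and no sequencing depth. No test between feeding states could be made on such calls. The lists differed in length. The fed and the fasted list held 15642 and 9613 BCL6 peaks, 21410 and 29085 PPARα peaks, and 7328 and 2399 PPARδ peaks, and the floxed list held 17454 BCL6 peaks. The range after a share is its 95% Wilson interval. It covers the error of counting alone and treats neighboring sites as independent. Distances are from the nearest TSS of the gene, negative upstream and positive downstream.

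The sites that appeared in the most lists at each of the 7 genes are shown first, since these are the regions at which the most factors and states met. Each is the central 200 bp of the site in mm10, on the plus strand, 5′ to 3′. Capitals mark matches on either strand to the PPAR element DR1, which was searched as AGGTCA, any 1 base and AGGTCA with up to 2 mismatches, or to the BCL6 element TTCCTAGAA with up to 1 mismatch.
Pcx -5680, chr19:4588539-4588738: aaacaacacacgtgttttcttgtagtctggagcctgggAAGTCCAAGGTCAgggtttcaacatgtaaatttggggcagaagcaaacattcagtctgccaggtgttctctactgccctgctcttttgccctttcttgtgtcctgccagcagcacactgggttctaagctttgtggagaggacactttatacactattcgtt
Pck1 +17248, chr2:173170221-173170420: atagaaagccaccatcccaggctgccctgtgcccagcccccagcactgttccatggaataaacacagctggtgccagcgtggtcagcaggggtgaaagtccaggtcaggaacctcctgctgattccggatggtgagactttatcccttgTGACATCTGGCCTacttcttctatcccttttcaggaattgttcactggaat
Fbp1 -787, chr13:62888969-62889168: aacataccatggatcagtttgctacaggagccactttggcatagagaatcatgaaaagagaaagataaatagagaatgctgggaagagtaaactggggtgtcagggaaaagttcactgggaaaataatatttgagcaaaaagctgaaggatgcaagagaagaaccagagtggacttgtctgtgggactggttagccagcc
G6pc +11525, chr11:101379141-101379340: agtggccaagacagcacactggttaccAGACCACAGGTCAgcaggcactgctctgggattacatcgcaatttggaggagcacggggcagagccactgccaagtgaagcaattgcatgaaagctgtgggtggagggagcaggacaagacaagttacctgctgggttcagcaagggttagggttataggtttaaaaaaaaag
Slc37a4 +2898, chr9:44401152-44401351: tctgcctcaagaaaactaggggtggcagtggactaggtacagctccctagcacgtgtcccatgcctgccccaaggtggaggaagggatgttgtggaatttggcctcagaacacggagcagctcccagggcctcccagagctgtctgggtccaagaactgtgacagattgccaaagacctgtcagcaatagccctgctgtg
Got1 +10477, chr19:43514028-43514227: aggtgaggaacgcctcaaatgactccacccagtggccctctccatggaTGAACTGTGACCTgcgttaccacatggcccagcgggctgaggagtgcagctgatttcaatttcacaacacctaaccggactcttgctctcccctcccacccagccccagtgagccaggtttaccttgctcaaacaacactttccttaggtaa
Tat -6196, chr8:109984140-109984339: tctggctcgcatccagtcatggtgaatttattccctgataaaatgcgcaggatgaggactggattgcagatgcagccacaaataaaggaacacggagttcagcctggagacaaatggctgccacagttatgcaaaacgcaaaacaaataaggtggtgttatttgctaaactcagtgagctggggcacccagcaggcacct
The *Pck1* and *G6pc* regions were called in all 7 lists, those of *Pcx*, *Fbp1* and *Got1* in 6, that of *Tat* in 5 and that of *Slc37a4* in 3. A DR1 match stood in 4 of these windows, at *Pcx*, *Pck1*, *G6pc* and *Got1*, and a BCL6 element in none. Over all 40474 sites the shares were 13.1% for DR1 and 10.8% for the BCL6 element. The 7 windows were picked by their number of lists, and a difference from these shares was not tested. None of the 4 matches lay wholly within the central 100 bp. There a DR1 match stood in 8.47% of the 59 sites, against 8.53% of all sites.

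Exact copies of either element were found at 2 other sites, which are shown for that reason. The *G6pc* site at -16484 held a run of 3 AGGTCA half-sites, which reads as 2 overlapping exact DR1 elements on the minus strand, 84 and 91 bp from the center of the site and so near the edge of the window. The *Got1* site at -1553 held an exact BCL6 element, 2 bp from the center of the site.
G6pc -16484, chr11:101351132-101351331: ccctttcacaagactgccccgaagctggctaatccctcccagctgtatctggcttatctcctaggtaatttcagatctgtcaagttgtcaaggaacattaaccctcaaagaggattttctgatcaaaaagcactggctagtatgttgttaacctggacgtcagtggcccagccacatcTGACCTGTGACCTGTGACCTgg
Got1 -1553, chr19:43526058-43526257: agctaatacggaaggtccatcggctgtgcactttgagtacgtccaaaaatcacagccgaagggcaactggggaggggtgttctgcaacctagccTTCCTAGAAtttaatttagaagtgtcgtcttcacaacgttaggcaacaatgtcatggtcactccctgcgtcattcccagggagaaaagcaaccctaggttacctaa
*Pck1* had the only BCL6 sites in the C57BL/6 lists at these genes that lacked PPARα, at -16322 and -10030. The first of these is shown, and its window held no match to either element.
Pck1 -16322, chr2:173136651-173136850: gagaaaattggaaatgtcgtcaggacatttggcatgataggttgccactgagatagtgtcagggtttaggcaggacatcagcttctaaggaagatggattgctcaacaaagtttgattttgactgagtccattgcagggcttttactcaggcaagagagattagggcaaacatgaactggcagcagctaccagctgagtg

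The promoters of *Pck1* and *G6pc* were overlapped by BCL6 and PPARα peaks in both feeding states and by BCL6 peaks in floxed livers. Their 250 bases before the TSS, from RefSeq promoters on GRCm38, are given on the strand of the gene. At *Pck1* the peaks reached only the upstream part of these bases, and the floxed BCL6 peak ended at the first of them. Capitals mark a cAMP response element (TGACGTCA, up to 1 mismatch), and the glucocorticoid response element (AGAACA, any 3 bases and TGTTCT, up to 2 mismatches) and the forkhead element (TGTTTAC, exact) were searched in the same way. These 3 elements, which are known from the hormonal control of gluconeogenesis, were added after the lists had been seen.
Pck1 promoter, chr2:173152823-173153072: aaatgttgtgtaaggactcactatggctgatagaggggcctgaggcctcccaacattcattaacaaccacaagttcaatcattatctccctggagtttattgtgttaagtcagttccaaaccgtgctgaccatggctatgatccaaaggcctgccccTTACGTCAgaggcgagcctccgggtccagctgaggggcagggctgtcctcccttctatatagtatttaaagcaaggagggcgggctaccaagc
G6pc promoter, chr11:101367466-101367715: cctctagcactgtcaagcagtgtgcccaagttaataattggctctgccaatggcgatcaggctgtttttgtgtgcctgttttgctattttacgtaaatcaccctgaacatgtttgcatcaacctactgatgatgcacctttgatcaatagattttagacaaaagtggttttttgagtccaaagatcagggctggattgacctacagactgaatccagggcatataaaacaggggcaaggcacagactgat
The *Pck1* promoter held a cAMP response element 93 to 86 bp before the TSS, as did 10.6% of 32851 promoters of this length. No peak covered this element, since the last peak over the *Pck1* promoter ended upstream of it, at chr2:173152898. No match to any of the 5 elements stood in the *G6pc* window, which says only that these letters are not there.

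BCL6 was called at 27 sites, PPARα at 52 and PPARδ at 19. At least 1 site of any factor was found at 7 of the 9 genes, against 52.8% of 21000 protein-coding genes. BCL6 was found at 6 of 9 (31.0% of all genes), PPARα at 7 (49.5%) and PPARδ at 6 (21.1%). A site shared by BCL6 and PPARα was present at 6 of 9 (25.9%), and a site with all 3 factors at 5 of 9 (13.0%). The median number of PPARα sites was 5 over the 9 genes and 0 over all genes, and the median number of shared sites was 4 and 0. All genes include 9920 without a site of any factor. Among all genes with at least 1 site of the kind, the median was 2 for PPARα and 2 for shared sites. *Pcx* had the most sites, with 18 in the C57BL/6 lists, a number reached by 0.557% of protein-coding genes. Its gene is 111 kb long, and 17 of its 19 sites were intronic. *G6pc* had the most shared sites, 7, a number reached by 1.31% of genes, and *Pck1* had 4, reached by 4.97%. *Slc37a4* was the only gene of the 7 with PPARα sites and no BCL6 site in the C57BL/6 lists.

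**Figure D1:**
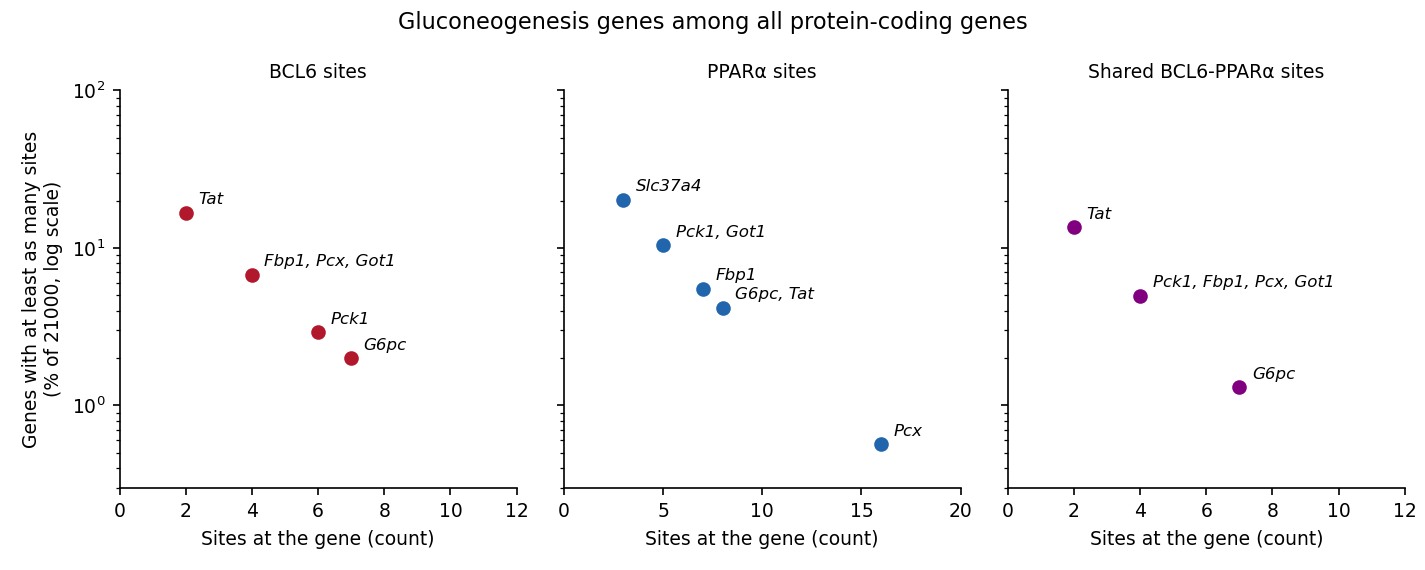
Number of BCL6, PPARα and shared BCL6-PPARα sites at each gluconeogenesis gene (horizontal axis, count) against the percentage of 21000 protein-coding genes with at least as many (vertical axis, log scale). Genes without such a site are not drawn; *G6pc* has 7 shared sites (1.31% of genes) and *Pcx* 16 PPARα sites (0.567%).

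Of the 59 sites, 28 lay in introns, 24 upstream, 6 downstream and 1 in an exon, and 10 lay in a promoter, from 1000 bp before to 100 bp after a TSS. BCL6 was in a promoter at 3 of 27 sites (11.1%, 3.85% to 28.1%), against 3.98% of all BCL6 sites, and these 3 belonged to *Pck1*, *G6pc* and *Fbp1*. PPARα was in a promoter at 9 of 52 (17.3%, 9.38% to 29.7%), against 13.0% of all PPARα sites. The median distance of a BCL6 site from the TSS was 9286 bp at these genes and 17277 bp over all BCL6 sites with a TSS within 100 kb.

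BCL6 sites at the gluconeogenesis genes were mostly called in both feeding states. In the C57BL/6 lists 21 of 27 were called in both (77.8%, 59.2% to 89.4%), against 43.7% of all 17577 BCL6 sites. Another 4 were called in fed livers only (14.8%, 5.92% to 32.5%), against 45.3%, and 2 in fasted livers only (7.41%, 2.06% to 23.4%), against 11.0%. The fed-only share rested on the list used for fed livers. With the floxed list in its place, BCL6 had 38 sites and 15 of them were fed only (39.5%, 25.6% to 55.3%), against 50.2% of 19307 sites over the genome, and the interval then included the genome-wide share. With that list 23 sites were called in both states (60.5%, 44.7% to 74.4%, against 40.2%) and 0 in fasted livers only, which allows a share of up to 7.89%, against 9.60%.

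PPARα was likewise called in both states at most of its sites. It was called in both at 37 of 52 (71.2%, 57.7% to 81.7%), against 51.3% of 33370 PPARα sites, in fasted livers only at 9 (17.3%, 9.38% to 29.7%), against 35.8%, and in fed livers only at 6 (11.5%, 5.40% to 23.0%), against 12.8%. PPARδ calls were limited to the fed list at 16 of 19 sites (84.2%, 62.4% to 94.5%), against 70.7% of 8194, and in both at 3 (15.8%, 5.52% to 37.6%), against 18.7%. No site had PPARδ in fasted livers only, which allows a share of up to 15.8%, against 10.6%. As the fasted PPARδ list is the shortest of the 7, list length and feeding state cannot be told apart in these counts.

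**Figure D2:**
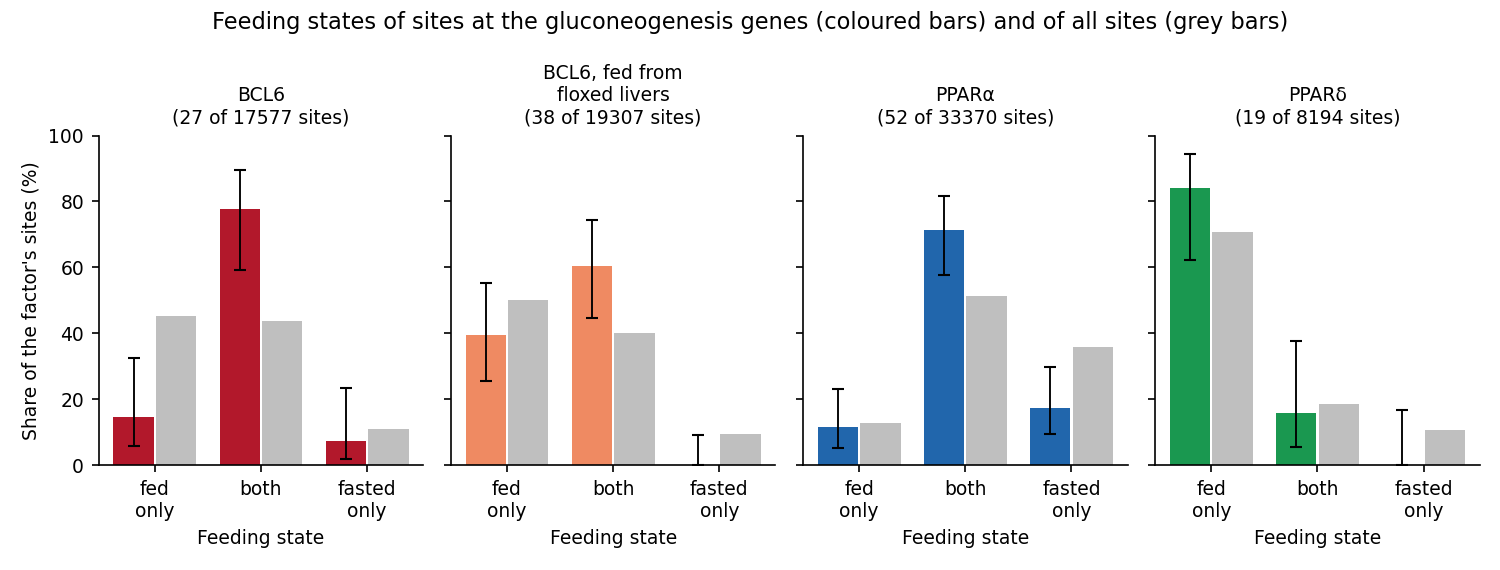
Percentage of each factor's sites (vertical axis) by feeding state of the call (horizontal axis), with colored bars for the gluconeogenesis genes (error bars, 95% Wilson intervals) and gray bars for all sites of the series. For BCL6 the bar for both states stands at 77.8% with the C57BL/6 fed list and at 60.5% with the floxed fed list.

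BCL6 coincided with PPARα at 25 of 27 sites (92.6%, 76.6% to 97.9%), against 77.6% of all BCL6 sites. The centers of both factors lay a median of 20 bp apart at these 25 sites, between 0 and 174 bp, and 14 bp apart over all shared sites. For the 25 sites the closest pair of C57BL/6 centers was taken, whether or not from the same feeding state. At 19 of the 25 both factors were called in both states (76.0%, 56.6% to 88.5%), against 44.0% of 13639 shared sites. The other 27 PPARα sites lacked BCL6 in the C57BL/6 lists. All 9 PPARα sites that were called in fasted livers only were among them, and genome-wide 10371 of 11960 fasted-only PPARα sites likewise lacked BCL6. The 9 made up 33.3% of the 27 (18.6% to 52.2%), against 52.6% of all PPARα sites without BCL6. For PPARα, 0 of the 25 shared sites were thus restricted to fasted livers, which allows a share of up to 12.0%, against 11.7% of all shared sites. At 1 shared site, *G6pc* -3108, PPARα was present in the fed list and BCL6 in the fasted list. PPARδ coincided with PPARα at 17 of 19 sites (89.5%, against 85.1%) and with BCL6 at 12 of 19 (63.2%, against 57.8%).

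**Figure D3:**
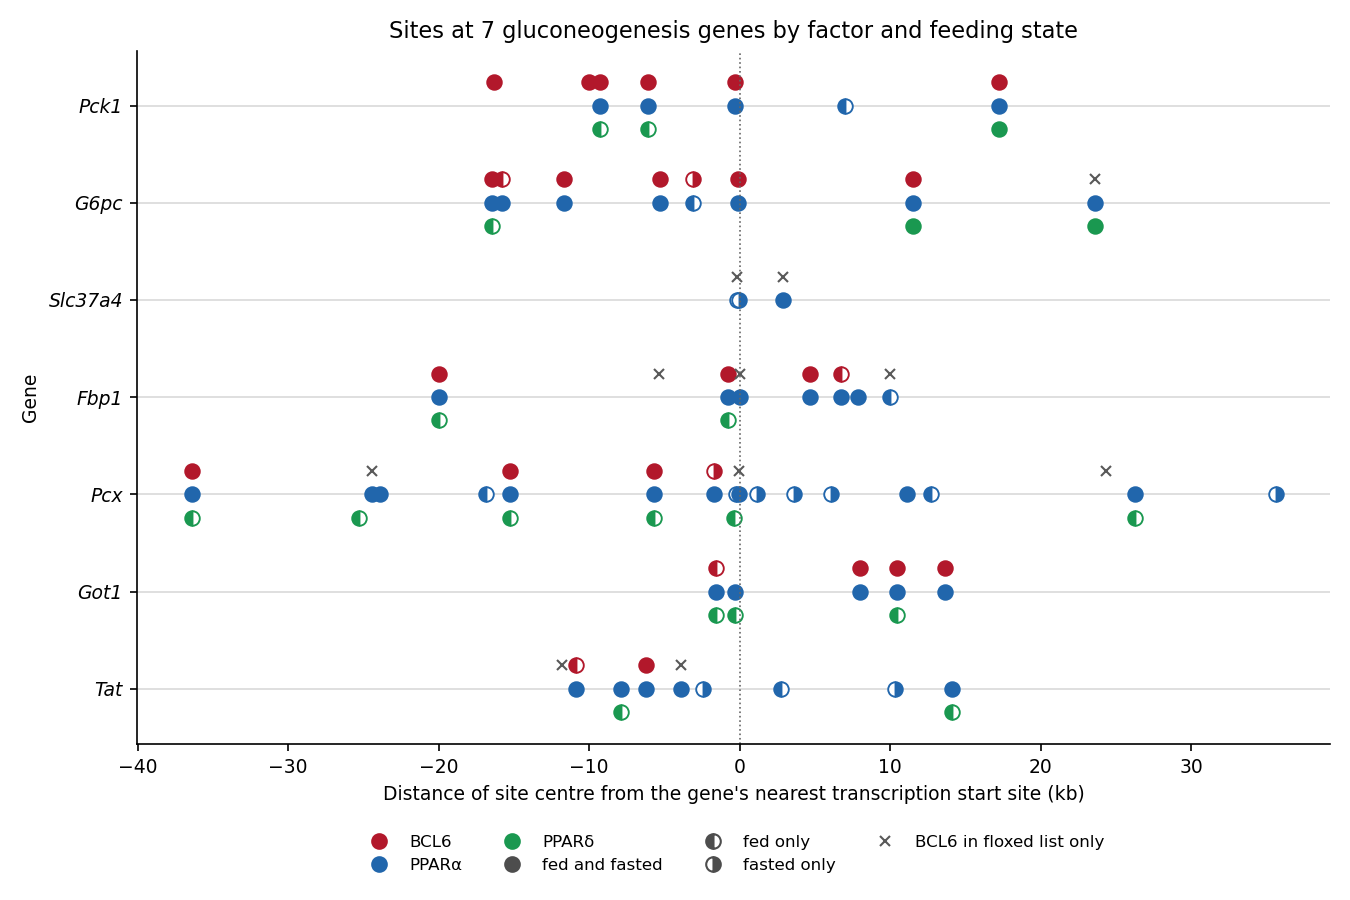
Sites at each gene by distance of the site center from the nearest TSS of that gene (kb), with BCL6 in red (top row of each gene), PPARα in blue (middle) and PPARδ in green (bottom). Full circles were called in both feeding states, left-filled circles in fed livers only and right-filled circles in fasted livers only, and crosses mark 11 sites with BCL6 only in floxed livers; full PPARδ circles stand at 1 *Pck1* and 2 *G6pc* sites, all downstream of the gene.

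*Pcx* (chr19:4510472-4621752, plus strand) encodes pyruvate carboxylase, which makes oxaloacetate in mitochondria and so opens the pathway. It had 16 PPARα, 6 PPARδ and 4 BCL6 sites, and all 4 BCL6 sites were shared with PPARα. BCL6 was called in both states at -36408, -15275 and -5680, all in intron 2 of the long transcript and upstream of the second TSS, and PPARα in both states and PPARδ in fed livers stood at the same 3 sites. At -1672, upstream of the first TSS, BCL6 was called in fasted livers only beside PPARα in both states. Calls of PPARα confined to fasted livers stood at 5 *Pcx* sites, namely -259, +1168, +3632, +6072 and +35607, which is more than at any other gene of the 9. As 5 of its 16 PPARα sites, this was a share below the 35.8% of all PPARα sites. *Pcx* also had the 2 sites with PPARδ and no other factor, at -25265 and -363, both in fed livers. The site at +12682, with PPARα in fed livers only, lay in intron 9 of *Pcx* but was nearer to the TSS of *Lrfn4*.

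*Pck1* (chr2:173153073-173159274, plus strand) encodes the cytosolic phosphoenolpyruvate carboxykinase, a classical target of fasting hormones. All 6 of its BCL6 sites were called in both states and in floxed livers. PPARα was called in both states at 4 of these, at -9286, -6121, -317 and +17248, and in fed livers only at a site without BCL6, +7011. PPARδ was called in fed livers at -9286 and -6121, and in both states at +17248, 11047 bp past the end of the gene. The promoter site at -317 had BCL6 and PPARα in both states and no PPARδ. The 4 BCL6 sites between -16322 and -6121 lay nearer to the TSS of the non-coding gene *Gm36691* than to that of *Pck1*, and went to that gene when non-coding TSSs were allowed.

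*Pck2* (chr14:55540266-55550020, plus strand) encodes the mitochondrial form of the enzyme and had no site. The nearest PPARα site lay 16943 bp downstream of its TSS, was called in fasted livers only and was nearer to *Dcaf11*. The nearest BCL6 site lay at 25593 bp and the nearest PPARδ site at 27432 bp. Protein-coding TSSs of other genes lay 15285 bp upstream and 19763 bp downstream of the *Pck2* TSS, which limits the stretch that could be assigned to it.

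*Fbp1* (chr13:62864753-62888282, minus strand) encodes fructose-1,6-bisphosphatase. It had 7 PPARα, 4 BCL6 and 2 PPARδ sites. BCL6 and PPARα were called together in both states at -19988, -787 and +4681, and BCL6 in fed livers only at +6765, where PPARα was called in both. PPARδ was called in fed livers at -19988 and -787. The site at +24, over the first exon, had PPARα in both states, no BCL6 in C57BL/6 livers and BCL6 in floxed livers. At +7866 PPARα alone was called in both states, and at +9981 it was called in fed livers.

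*G6pc* (chr11:101367716-101377903, plus strand) encodes the catalytic subunit of glucose-6-phosphatase, which releases free glucose in the last step. PPARα was present at all 8 of its sites and BCL6 at 7. Both factors were called in both states at 5 sites, -16484, -11657, -5281, -110 and +11525. At +11525 the C57BL/6 centers of BCL6 and PPARα lay more than 200 bp apart within each feeding state. They joined through other peaks, and the closest pair, fasted BCL6 and fed PPARα, lay 174 bp apart. At -15783 BCL6 was called in fed livers only beside PPARα in both states. At -3108 the calls were opposite, with BCL6 in fasted and PPARα in fed livers, although BCL6 was also called there in fed floxed livers. PPARδ was called in fed livers at -16484 and in both states at +11525 and +23637, which lie 1338 and 13450 bp past the end of the gene. Together with *Pck1* +17248 these were the only sites of the 9 genes with PPARδ in fasted livers.

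*Slc37a4* (chr9:44396946-44402966, plus strand) encodes the transporter that carries glucose-6-phosphate into the endoplasmic reticulum for *G6pc*. Its 3 sites had PPARα only. Those at -46 and -172, in promoters of its different TSSs, were called in fasted livers only, and the site at +2898 in intron 6 was called in both states. BCL6 was called at -172 and +2898 in floxed livers but in neither C57BL/6 list. Although *Slc37a4* and *G6pc* act as a unit, no PPARδ and no shared site was assigned to the transporter.

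*Got1* (chr19:43499752-43524605, minus strand) encodes cytosolic aspartate aminotransferase, which returns aspartate carbon to oxaloacetate in the cytosol. PPARα was called in both states at all 5 sites. BCL6 joined it in both states at +7992, +10477 and +13633, all intronic, and in fed livers only at -1553. PPARδ was called in fed livers at -1553, -288 and +10477. The -288 site in the promoter had PPARα and PPARδ and was not called for BCL6 in any list.

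*Tat* (chr8:109990436-109999804, plus strand) encodes tyrosine aminotransferase, a glucocorticoid-induced enzyme of amino acid breakdown. It had 8 PPARα sites and 2 BCL6 sites. BCL6 was called in both states at -6196 and in fed livers only at -10877, both beside PPARα in both states. PPARα without C57BL/6 BCL6 was called in both states at -7880, -3901 and +14086, in fasted livers only at -2462 and +10308, and in fed livers only at +2752. PPARδ was called in fed livers at -7880 and +14086, and no *Tat* site had all 3 factors. BCL6 was called at -3901 in floxed livers. Of the 7 genes with sites, *Tat* was the only one with none in a promoter.

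*Sds* (chr5:120476547-120483905, plus strand) encodes serine dehydratase, which turns serine into pyruvate, and had no site. The closest site lay 3522 bp upstream, with PPARα in both states, PPARδ in fed livers and BCL6 in floxed livers, but 200 bp from the TSS of the neighboring paralog *Sdsl*, to which it was assigned. The nearest C57BL/6 BCL6 site, called in both states, lay 8114 bp upstream and was also nearest to *Sdsl*. Under the nearest-TSS rule these sites therefore count for *Sdsl*, and the lists do not say which of the neighbors they serve.

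**Figure D4:**
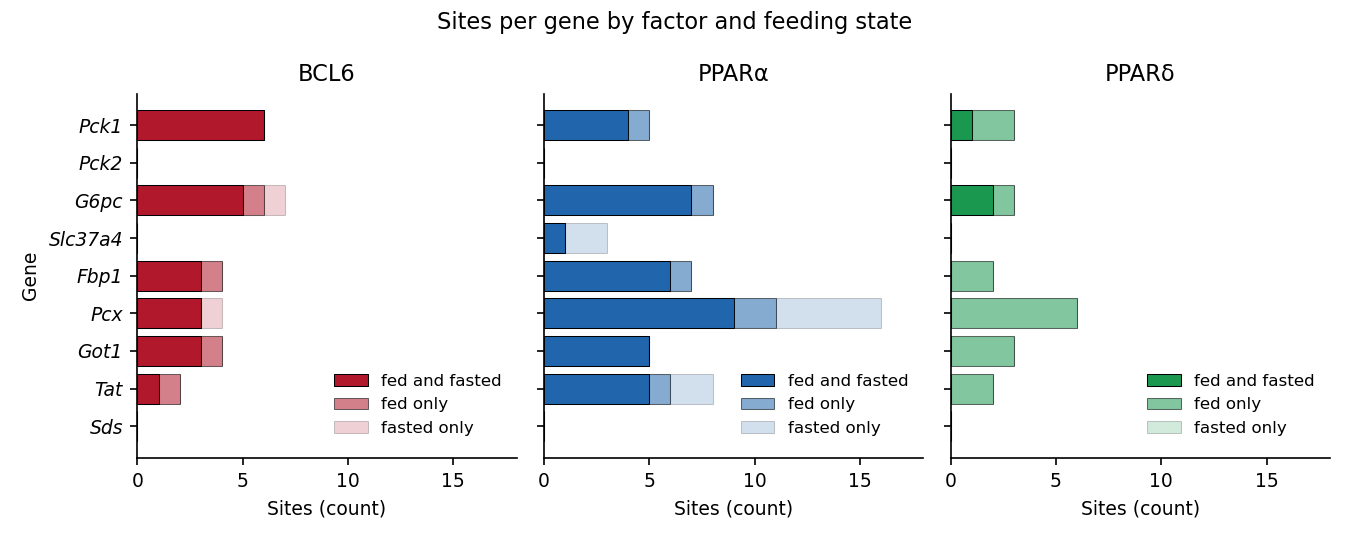
Number of sites per gene (horizontal axis, count) for BCL6, PPARα and PPARδ, stacked by feeding state: called in both (dark), in fed livers only (medium) and in fasted livers only (light). All 6 *Pck1* BCL6 sites were called in both states, and 5 of the 16 *Pcx* PPARα sites were called in fasted livers only (35.8% of all PPARα sites).

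All 25 fed BCL6 peaks of C57BL/6 mice at these genes had a floxed peak within 200 bp (100%, 86.7% to 100%), against 69.4% of all 15642 fed peaks. These were a median of 17 bp apart. Most BCL6 sites at these genes were called in both states, and such sites were in the floxed list more often genome-wide as well. Of BCL6 sites called in both states, 21 of 21 at these genes were in the floxed list (84.5% to 100%), against 88.7% of all 7677. The floxed list called BCL6 at 38 sites of the 7 genes, of which 11 had no BCL6 call in C57BL/6 livers (28.9%, 17.0% to 44.8%, against 32.2% genome-wide). PPARα was called at 8 of these 11 sites (72.7%, 43.4% to 90.3%, against 63.1%). The other 3, *Fbp1* -5370, *Pcx* +24355 and *Tat* -11778, were called in no other list.

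A DR1 match stood in the central 200 bp of 11 of the 59 sites (18.6%, 10.7% to 30.4%), against 13.1% of all 40474 sites. In the central 50 bp the order was the opposite, with 1.69% at these genes and 4.19% over all sites. *G6pc* and *Pcx* had 4 such sites each, and *Pck1*, *Got1* and *Tat* had 1 each. Among the 27 BCL6 sites 7 held a DR1 match (25.9%, 13.2% to 44.7%), against 11.8% of all BCL6 sites, and among the 27 PPARα sites without BCL6 the count was 2 (7.41%, 2.06% to 23.4%), against 14.4%. In the central 100 bp this order turned, with 1 of 27 BCL6 sites (3.70%, against 7.18%) and 2 of 27 PPARα sites without BCL6 (7.41%, against 9.90%). A BCL6 element stood in 5 of 59 sites (8.47%, 3.67% to 18.4%), against 10.8%. It stood in 2 of the 27 sites with BCL6 in C57BL/6 livers (7.41%, 2.06% to 23.4%), against 15.2% of all BCL6 sites. Of the elements added later, the glucocorticoid response element matched at 6 sites (10.2%, 4.74% to 20.5%, against 2.12%), 3 of them at *Pcx*, 2 at *Tat* and 1 at *Got1*, each with 2 mismatches. The cAMP response element matched at 5 (8.47%, against 7.44%) and the forkhead element at 4 (6.78%, against 7.45%). In the central 100 bp the glucocorticoid element was left at 2 sites (3.39%, 0.935% to 11.5%, against 1.06%), and with 1 mismatch fewer at none of the 59.

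A wider list of 22 genes that supply carbon to gluconeogenesis, run its reversible steps, export glucose or are paralogs of the 9 genes was counted by the same rule. All 22 had a PPARα site (49.5% of all protein-coding genes), 15 a BCL6 site (31.0%), 17 a PPARδ site (21.1%) and 15 a shared BCL6-PPARα site (25.9%). The genes without BCL6 were 5 enzymes shared with glycolysis, *Pgam1*, *Pgk1*, *Gapdh*, *Tpi1* and *Gpi1*, and the paralogs *Fbp2* and *G6pc3*. *Aqp9*, the glycerol channel of hepatocytes, had the most sites of the list, with 9 BCL6 sites among 12, and *Slc2a2*, the glucose transporter GLUT2, had 6 BCL6 sites among 9. BCL6 at the wider list was called in fed livers only at 24 of 54 sites (44.4%, against 45.3% of all BCL6 sites), in both at 27 (50.0%, against 43.7%) and in fasted livers only at 3 (5.56%, against 11.0%). PPARα was called in both states at 69 of 102 sites (67.6%, against 51.3%) and in fasted livers only at 25 (24.5%, against 35.8%), and PPARδ in fed livers only at 39 of 47 (83.0%, against 70.7%). Whether the 9 genes and the wider list differ in their BCL6 states was not tested.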

How the data were processed

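Chromatin of BCL6, PPARα and PPARδ was sequenced from mouse liver, with 3 biological replicates for each of the 7 peak lists used here. Per the study's methods, the authors used Bowtie for alignment to mm10, retained unique reads and 1 read per start position, pooled the replicates for peak calling by HOMER relative to input, and filtered the peaks with DESeq2 (2-fold, false discovery rate 0.05). What they deposited is peak positions (chromosome, start and end), without a count or score, so depth is unknown and precision is limited to counting error. Reads with several places in the genome were dropped by the authors, so repeated sequence can lack peaks.

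Peak centers were joined into sites by single linkage within 200 bp over all lists, and sites were assigned to curated protein-coding RefSeq transcripts (37867 transcripts, 26032 TSSs) of GRCm38, the assembly of mm10. Shares have Wilson intervals at 95%, a count of 0 is given with the share that 3 counts would make, and no p-value was computed. Elements were searched on both strands in 200 bp windows. The genes, the wider list and the elements were chosen with earlier results of these data known. Named genes are the 9 genes, the wider list and genes nearest to a site of the 9; for each gene the site in the most lists is shown, with ties given to the nearest TSS. The 2 sites with exact elements and the BCL6 site without PPARα were added after their values were seen, and the sequence of the other BCL6 site without PPARα is not reported here. The joining of peaks, the feeding-state calls, the assignment to genes and the element search were tested on simulated data. Alternatives covered the joining distance, the reach and kind of TSS, the fed BCL6 list, and the windows and mismatches of the elements. The other samples of the series were not used here. Scripts ran in Python 3.11.15 with Matplotlib 3.10.9 for figures, SciPy 1.17.1 for intervals and NumPy 2.4.6.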

Additional observations from a re-analysis of the deposited data

How the results depend on the processing

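The joining distance (100 or 400 bp), the reach of the TSS (50 kb or 1 Mb), assignment by the nearest TSS alone and the inclusion of non-coding TSSs left the numbers of BCL6 (23 to 27), PPARα (50 to 52) and PPARδ (17 to 19) sites within 1.5 times the reported ones, and predicted TSSs, an alternative added after seeing the data, gave 26, 53 and 19. With the floxed list for fed livers there were 38 BCL6 and 33 shared sites, and the fed-only share of BCL6 moved from 14.8% to 39.5%; the cause was not tested. The share of sites with a DR1 match fell with the construction of the scan, to 8.47% in 100 bp windows, 1.69% in 50 bp windows and 5.08% with 1 mismatch fewer, and that of the BCL6 element to 1.69% in 50 bp windows and 1.69% with 1 mismatch fewer. Over all sites the DR1 shares under the same settings were 8.53%, 4.19% and 3.07%, so the order of the 9 genes and all sites changed with the window. No paired analysis was possible because each list pools its replicates, and for the same reason leaving out a replicate could not be run. Without depth, a site missing from a list may lie below its threshold.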

Other observations

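The 11 sites with BCL6 in fed floxed livers and in neither C57BL/6 list were spread over 5 genes: 3 at *Fbp1*, 3 at *Pcx*, 2 at *Slc37a4*, 2 at *Tat* and 1 at *G6pc*. With them, BCL6 reached all 7 genes that had any site. Of the other genes with sites, *Pck1* and *Got1* had no site of this kind. Predicted transcripts place a further start for *Tat* upstream of the curated one, and the PPARα site at *Tat* -3901 lies just downstream of that start; with predicted TSSs the *G6pc* site at -16484, which holds the exact DR1 run, went to *Aoc3*, 15815 bp away.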
